A study of Homo sapiens with 5 samples.

Results

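Glycolysis, the pentose phosphate pathway and pyruvate metabolism were followed through 35 gene symbols, running from the glucose transporters to the subunits of 2-oxoglutarate dehydrogenase. The symbols were chosen by name, with earlier results of these data known. The deposited table has 37181 entries under 31673 gene symbols, and 30 of the 35 symbols have an entry of their own name. Where a symbol had more than 1 entry, the entry with the highest mean over the 5 libraries was used. The transcripts of the other 5 (SLC2A1, GPI, PFKP, PFKFB4 and ALDOC) lie inside entries that join several genes under another name, so their own levels were not measured, and those entries are described separately.

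The cells were HCC827, a human lung adenocarcinoma line that carries a deletion in exon 19 of EGFR and is labelled gefitinib sensitive, and HCC827/GR, a line with the same deletion that was derived from it by treatment with rising doses of the EGFR inhibitor gefitinib over a period of months. RNA sequencing of HCC827/GR replicates 1, 2 and 3 and of HCC827 replicates 2 and 3 was compared. Expression is given as FPKM, the number of fragments scaled to transcript length and library size, which is a level per length and can be set side by side between genes. A single resistant line was sequenced, and neither the labels nor the methods say whether its libraries came from separate cultures or whether gefitinib was present at harvest, so the p-values measure only the spread between these libraries, which may be technical.

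Glycolysis splits glucose into pyruvate in the cytosol, with hexokinase, phosphofructokinase and pyruvate kinase as its regulated steps. Pyruvate is then reduced to lactate and exported, or enters the mitochondrion, where pyruvate dehydrogenase turns it into acetyl-CoA for the citric acid cycle. The pentose phosphate pathway branches off at glucose 6-phosphate and yields NADPH and ribose. In lung adenocarcinoma driven by mutant EGFR, signaling from the receptor is known to sustain glucose uptake and glycolysis, and many genes of the pathway are targets of the hypoxia-inducible factor HIF1.

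Read numbers cannot be had from FPKM, so sequencing depth is unknown and no counting error can be given. In bulk RNA, fewer cells of a kind and less RNA per cell cannot be told apart. Of 8 markers of lung adenocarcinoma epithelium, 7 had an entry. All 7 had lower values in every HCC827/GR library than in either HCC827 library, and 5 of them passed the test described next. The summed level of the 6 markers whose entries hold no other gene was 459 to 591 FPKM in HCC827/GR and 1114 to 1223 FPKM in HCC827. By the same restriction, marker sums for fibroblasts, leukocytes and erythroid cells stayed at or below 1.17 FPKM in every library. Entries that join PDGFRA or CD68 with other genes were left out, at 1.88 to 2.53 FPKM for the first and 30.8 to 38.9 FPKM for the second. The endothelial sum was 0.0672 to 0.108 FPKM in HCC827/GR and 3.42 to 4.44 FPKM in HCC827, carried by an entry named PECAM1 with no transcript found in GENCODE and listed at 0 in HCC827/GR. Their part in the results was not tested.

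Of the listed genes, 3 differed between the lines past the threshold used here. PGK1, which encodes phosphoglycerate kinase, was 0.337 times as abundant in HCC827/GR cells as in HCC827 cells, OGDHL, a paralog of the 2-oxoglutarate dehydrogenase subunit OGDH, was 5.62 times as abundant, and PFKM, the muscle-type phosphofructokinase, was 1.43 times as abundant. SLC2A3 stayed below a mean of 0.5 FPKM, and the other 29 genes were tested with limma on log2(FPKM + 1) together with all 16189 entries that reached this mean. With Benjamini-Hochberg adjustment over all entries, 2 members were higher (PFKM and OGDHL) and 1 was lower (PGK1) at an adjusted p under 0.05. These 3 of 29 amount to 10.3%, against 11.0% of all entries called in either direction (5.26% higher and 5.71% lower), so the set was not called more often than the rest of the table. The study asked for 2-fold up or 0.5-fold down with an unadjusted p under 0.05, computed with Ballgown. With these cut-offs set on the limma fit instead, 2 members (PGK1 and OGDHL) passed, or 6.90%, against 6.94% of all entries. The test differs from that of the study, so these counts are not the study's own. An unadjusted p under 0.05 was reached by 11 of the 29, against 27.2% of all entries. The median log2 fold change was -0.08 over the 29 members and 0.00 over all entries. In 16 of the 29, or 55.2%, no HCC827/GR value fell within the HCC827 range or the reverse, against 46.3% of all entries. HCC827/GR was higher in 8 of these and lower in the other 8, against 22.8% and 23.4% of all entries.

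**Figure D1:**
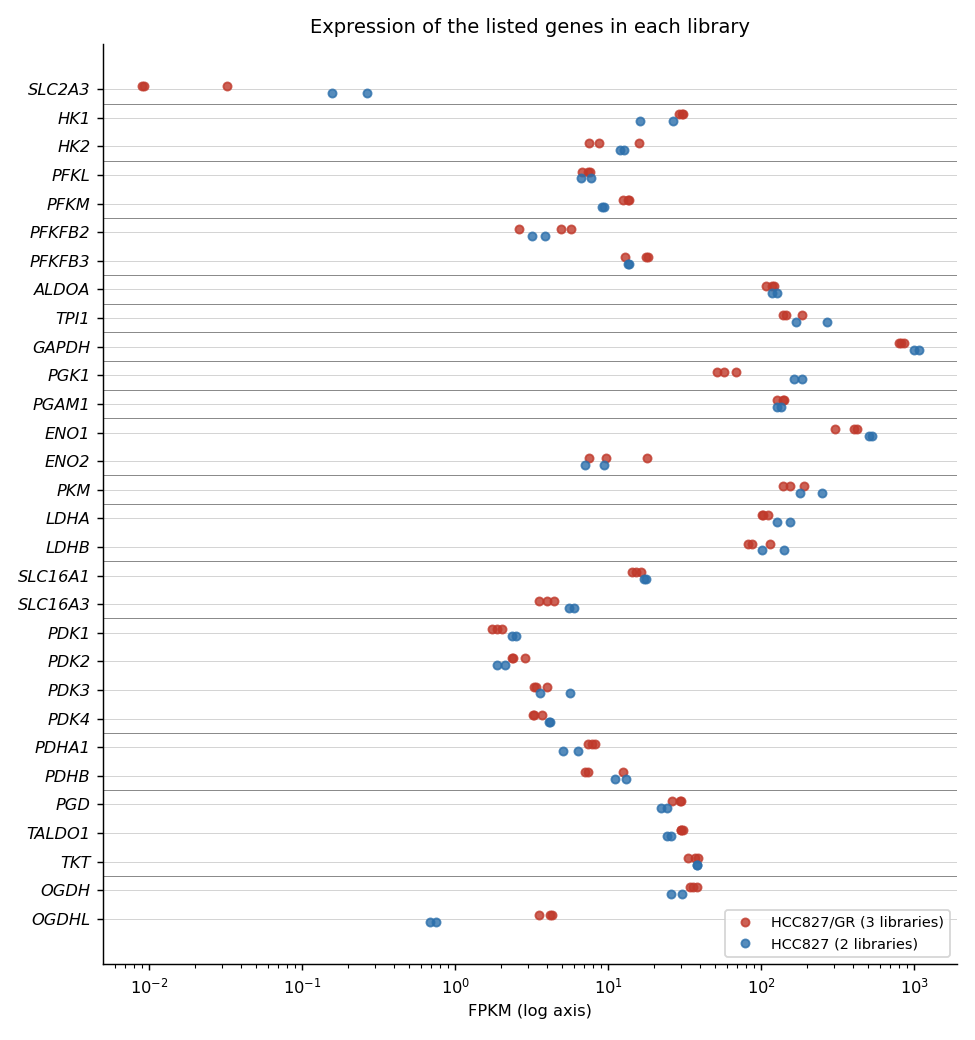
FPKM of the 30 listed genes in each library, on a log axis and ordered along the pathway, with HCC827/GR libraries in red and HCC827 libraries in blue. GAPDH is the most abundant in every library and SLC2A3 the least, and the groups are far apart for PGK1 and OGDHL.

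The levels of the members ranged over several orders of magnitude in both lines. GAPDH had the highest mean over the 5 libraries, 909.8 FPKM, followed by the enolase ENO1 with 433 FPKM and the pyruvate kinase PKM with 183 FPKM. The place of PGK1 differed between the lines. In HCC827 cells its mean of 174 FPKM was above those of LDHA with 141, PGAM1 with 131 and ALDOA and LDHB with 122 each, and in HCC827/GR cells its mean of 58.8 FPKM was below those of PGAM1 with 135, ALDOA with 115, LDHA with 105 and LDHB with 94.2. The 30 genes summed to 2226, 2433 and 2267 FPKM in HCC827/GR replicates 1, 2 and 3 and to 2954 and 2879 FPKM in HCC827 replicates 2 and 3. As a share of all FPKM in the table the HCC827/GR libraries had 1.33%, 1.69% and 1.46% and the HCC827 libraries 2.13% and 1.78%. GAPDH alone made up between 33.7% and 37.9% of the members' sum in each library.

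At the entry of glucose, SLC2A3, which encodes the glucose transporter GLUT3, was barely expressed, at 0.00898 to 0.0325 FPKM in HCC827/GR cells and 0.156 and 0.267 FPKM in HCC827 cells. It was not tested. Of the hexokinases, which phosphorylate glucose, HK1 had 28.9, 30.4 and 30.9 FPKM in HCC827/GR replicates 1 to 3 and 16.2 and 26.5 FPKM in HCC827 replicates 2 and 3. The HK1 groups do not overlap, but the HCC827 libraries lie far apart, and the log2 fold change of 0.52 (standard error 0.22) had an adjusted p of 0.216. Without HCC827 replicate 2 it was 0.18 and without HCC827 replicate 3 it was 0.86. HK2, the isoform typical of proliferating cells, ran from 7.48 to 15.9 FPKM in HCC827/GR cells and had 12.6 and 11.9 FPKM in HCC827 cells, so the groups overlap. HK1 made up 66.0% to 79.4% of the HK1 and HK2 sum in HCC827/GR cells and 56.1% and 69.0% in HCC827 cells. With the hexokinase-like HKDC1 added to the sum, a choice made after the data were seen, HK1 made up 48.7% to 57.1% and 43.9% and 56.3%.

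Phosphofructokinase commits fructose 6-phosphate to glycolysis. PFKM (chr12:48105139-48146404 on GRCh38, plus strand) had 12.5, 13.5 and 13.7 FPKM in HCC827/GR replicates 1 to 3 and 9.36 and 9.12 FPKM in HCC827 replicates 2 and 3. Replicates lay close together in both lines and every HCC827/GR value was above every HCC827 value. The log2 fold change was 0.48 (standard error 0.09, 95% confidence interval 0.25 to 0.71, adjusted p = 0.0382 from limma). This call was not stable. The adjusted p was 0.0952, 0.115 and 0.101 without HCC827/GR replicate 1, 2 or 3 and 0.121 and 0.124 without HCC827 replicate 2 or 3, while the log2 fold change stayed between 0.45 and 0.51. PFKL, the liver-type isoform, had 6.77 to 7.60 FPKM in HCC827/GR cells and 6.65 and 7.69 FPKM in HCC827 cells. The 95% confidence interval of the PFKL log2 fold change, 0.01, was -0.26 to 0.29. PFKM thus made up 63.1%, 66.7% and 64.3% of the PFKL and PFKM sum in HCC827/GR cells and 58.5% and 54.2% in HCC827 cells. Scaling between libraries cannot move this ratio within each library. The sum leaves out the platelet-type PFKP, which has no entry of its own. The entry that joins PFKP with other genes had 16.1, 18.2 and 16.8 FPKM in HCC827/GR cells and 11.5 and 13.5 FPKM in HCC827 cells. The share of PFKM among all phosphofructokinase isoforms is therefore not known.

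PFKFB2 and PFKFB3 make and degrade fructose 2,6-bisphosphate, the activator of phosphofructokinase. PFKFB3 had 12.8 to 18.3 FPKM in HCC827/GR cells and 13.4 and 13.6 FPKM in HCC827 cells. PFKFB2 had 2.63 to 5.75 FPKM and 3.85 and 3.19 FPKM. The groups overlapped for both genes, and the adjusted p was 0.459 and 0.691. The aldolase ALDOA, which splits fructose 1,6-bisphosphate, had 108, 121 and 117 FPKM in HCC827/GR replicates 1 to 3 and 126 and 117 FPKM in HCC827 replicates 2 and 3 (log2 fold change -0.08, 95% confidence interval -0.34 to 0.19). The ALDOA entry also holds transcripts of AC093512.2.

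**Figure D2:**
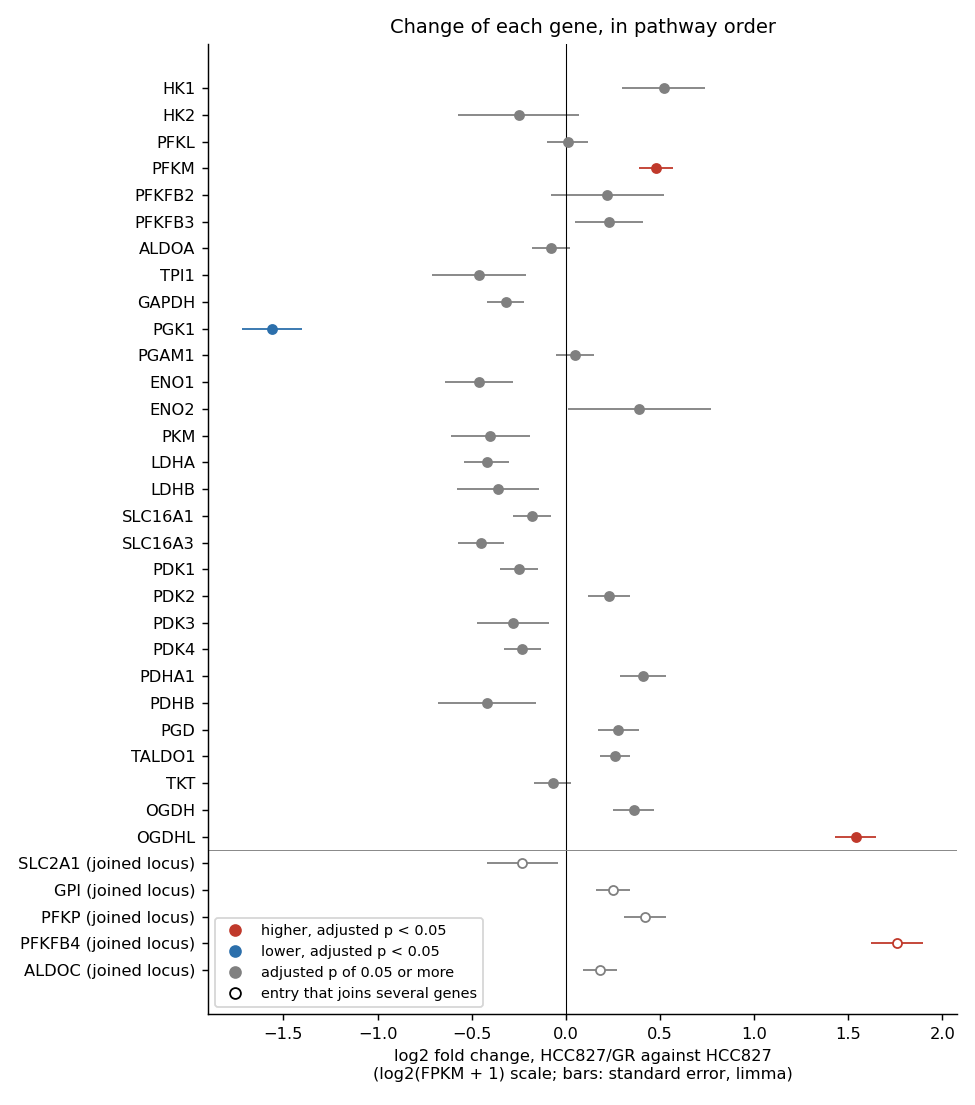
Log2 fold change between HCC827/GR and HCC827, from log2(FPKM + 1), with its standard error from limma, for the 29 tested members in pathway order and, as open circles, the entries that hold the other 5 genes jointly with neighbors. PGK1 lies far to the left at -1.56 and OGDHL far to the right at 1.54, and most others lie within 0.5 of 0.

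Between triose phosphate and lactate export, 9 of 11 genes had a log2 fold change below 0, against 8064 of all 16189 entries. Their median was -0.40. This stretch was not among the planned comparisons, and without TPI1 the count was 8 of 10 with a median of -0.38. PGK1 was the only 1 of the 11 genes to pass the test. PGK1 transfers a phosphate from 1,3-bisphosphoglycerate to ADP, the first step of glycolysis that returns ATP. It had 51.2, 68.3 and 56.9 FPKM in HCC827/GR replicates 1 to 3 and 185 and 163 FPKM in HCC827 replicates 2 and 3. The highest HCC827/GR library thus lay well below the lowest HCC827 library, and the difference of the means, 58.8 ± 8.73 (SD, n = 3) against 174 ± 15.4 FPKM (SD, n = 2), was many times the spread within either line. The log2 fold change was -1.56 (standard error 0.16, 95% confidence interval -1.97 to -1.15, adjusted p = 0.0106 from limma). Without HCC827 replicate 2 or 3 it was -1.47 or -1.65 with an adjusted p of 0.0708 or 0.0555.

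The enzymes next to PGK1 in the pathway did not follow it to this extent. Of the summed FPKM of the 9 genes from TPI1 to LDHB, PGK1 took 2.76%, 3.34% and 3.01% in HCC827/GR replicates 1 to 3 and 7.13% and 6.49% in HCC827 replicates 2 and 3. GAPDH, which acts directly before PGK1, took 40.3% to 45.5% and 38.3% and 42.5%, and PGAM1, the mutase directly after it, took 6.75% to 7.49% and 4.91% and 5.31%. In FPKM, GAPDH had 801, 824 and 859.6 in HCC827/GR replicates 1 to 3 and 995 and 1069 in HCC827 replicates 2 and 3. Every HCC827/GR value of GAPDH was below both HCC827 values, with a log2 fold change of -0.32 (standard error 0.10) and an adjusted p of 0.139. This value moved to -0.78 (adjusted p = 0.384) with quantile normalization. PGAM1 had 126 to 141 FPKM in HCC827/GR cells and 127 and 134 FPKM in HCC827 cells, and the 95% confidence interval of its log2 fold change ran from -0.22 to 0.31.

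The promoters of PGK1, GAPDH, ENO1 and OGDHL are shown as those of the gene that fell, of 2 abundant genes of the same stretch that did not pass the test, and of the gene that rose most. The PGK1 promoter is a textbook target of HIF1, whose core site reads ACGTG or GCGTG. Each line gives the 250 bases before the start, 5′ to 3′ on the strand of the gene, from RefSeq on GRCh38.p14, with ACGTG on either strand in capitals. The windows are chrX:78103998-78104247 on the plus strand, chr12:6535014-6535263 on the plus strand, chr1:8878687-8878936 on the minus strand and chr10:49762380-49762629 on the minus strand.
PGK1: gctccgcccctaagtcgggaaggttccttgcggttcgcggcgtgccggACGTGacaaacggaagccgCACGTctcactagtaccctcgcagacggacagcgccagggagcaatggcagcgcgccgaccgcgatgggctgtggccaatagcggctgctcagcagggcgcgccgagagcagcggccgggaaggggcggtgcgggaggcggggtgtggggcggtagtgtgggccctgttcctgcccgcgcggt
GAPDH: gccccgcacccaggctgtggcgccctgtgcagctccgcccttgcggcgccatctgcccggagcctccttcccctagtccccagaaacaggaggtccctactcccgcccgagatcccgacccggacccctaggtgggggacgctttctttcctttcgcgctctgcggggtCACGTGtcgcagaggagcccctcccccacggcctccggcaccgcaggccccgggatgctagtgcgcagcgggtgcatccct
ENO1: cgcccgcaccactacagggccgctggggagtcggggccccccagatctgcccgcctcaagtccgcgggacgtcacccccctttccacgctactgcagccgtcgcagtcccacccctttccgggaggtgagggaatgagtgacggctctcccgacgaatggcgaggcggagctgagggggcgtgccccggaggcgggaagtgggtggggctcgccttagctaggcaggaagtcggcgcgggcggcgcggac
OGDHL: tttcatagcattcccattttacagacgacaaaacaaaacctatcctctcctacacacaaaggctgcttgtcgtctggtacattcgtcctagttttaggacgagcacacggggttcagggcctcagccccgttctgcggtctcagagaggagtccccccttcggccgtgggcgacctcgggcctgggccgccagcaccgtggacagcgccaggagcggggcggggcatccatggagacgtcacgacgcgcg
The PGK1 window held ACGTG at 2 places, the one nearer the start on the opposite strand. In GAPDH the 2 matches are the strands of a single CACGTG. ENO1 and OGDHL had no ACGTG. The other form, GCGTG, is not capitalized and occurred at 2 places in ENO1, at 1 in PGK1 and not in GAPDH or OGDHL. Of the 30 members, 26 had promoter windows in the table, 52 in all, and ACGTG occurred in 19 of these, or 36.5%, against 18.5% of all 35116 windows. For GCGTG the shares were 30.8% and 32.2%. All are shares of windows and not of genes, and windows of the same gene can overlap and hold the same site. HK1 and PFKM had 7 windows each and SLC16A3 had 5, while the 35116 windows belong to 27305 genes. These matches are letters in a window and were not tested as binding sites. The GAPDH and ENO1 windows lie inside the GENCODE spans of these genes, chr12:6533927-6538374 and chr1:8861000-8879250. Whether they precede the start that these cells use most was not measured.

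PGK1 spans chrX:77910739-78129296 on GRCh38 in GENCODE release 29 (plus strand), a span that starts within the neighboring ATP7A and contains PGAM4. The 5 nearest tested protein-coding genes on either side, by their lowest coordinate against that of this span, were looked at after the values of PGK1 were seen. Of these 10, 9 had a log2 fold change below 0, and the median was -0.86. At an adjusted p under 0.05, 4 of 10 were lower, against 5.71% of all entries. They were COX7B with -0.94 (adjusted p = 0.0446), MAGT1 with -0.99 (adjusted p = 0.0374), ATRX with -0.57 (adjusted p = 0.0449) and BRWD3 with -1.43 (adjusted p = 0.0120). With any single library left out, COX7B, MAGT1 and ATRX lost the call, BRWD3 kept it in 3 of 5 such fits, and the count of called neighbors was 0 or 1. PGAM4 had a log2 fold change of 0.26 (adjusted p = 0.453). The RefSeq start of PGK1, which follows the promoter window shown, lies at 78104248, inside the GENCODE span. Counted from there, PGAM4 lies before PGK1, SH3BGRL replaces MAGEE1 among the 10, and 9 log2 fold changes were below 0 with 5 genes called lower and a median of -0.86. Around PFKM the same count gave a median of -0.05 with 1 gene lower (KANSL2) and none higher, and around OGDHL a median of 0.22 with 2 higher (ANXA8 and WASHC2A) and none lower. None of these 3 calls held with any single library left out.

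**Figure D3:**
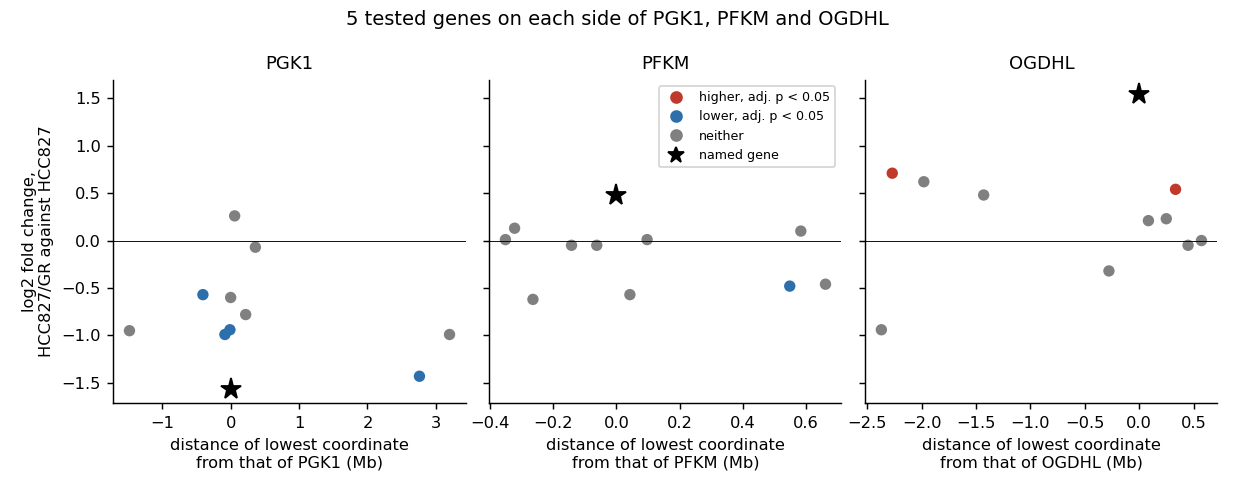
Log2 fold change of the 5 tested protein-coding genes on each side of PGK1, PFKM and OGDHL against the distance between their lowest GENCODE coordinates and that of the named gene in megabases, with the named gene as a star at 0. Around PGK1, 9 of 10 neighbors lie below 0 and 4 are called lower, whereas PFKM and OGDHL lie above most of their neighbors.

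TPI1 and PKM differed more between the HCC827 libraries than between the means of the lines. TPI1, which interconverts the triose phosphates, had 139, 184 and 146 FPKM in HCC827/GR replicates 1 to 3 and 269 and 169.8 FPKM in HCC827 replicates 2 and 3. PKM had 139.5, 191 and 154 FPKM and 249 and 179 FPKM in the same order. In both genes HCC827 replicate 2 was the high library, the groups overlapped, and without that library the log2 fold change shrank to -0.13 for TPI1 and -0.16 for PKM. ENO1 had 405, 423 and 306 FPKM in HCC827/GR cells and 505 and 527 FPKM in HCC827 cells, with no overlap and a log2 fold change of -0.46 (standard error 0.18), which had an adjusted p of 0.180. ENO2, the neuronal enolase, had 9.66, 17.9 and 7.48 FPKM against 9.33 and 7.04 FPKM, and made up 2.33% to 4.06% of the enolase sum in HCC827/GR cells and 1.81% and 1.32% in HCC827 cells.

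Genes of lactate production and export had lower means in HCC827/GR cells, and none of them passed the test. LDHA, the subunit that favors lactate formation, had 101, 110.2 and 103 FPKM in HCC827/GR replicates 1 to 3 and 155 and 127 FPKM in HCC827 replicates 2 and 3. The LDHA groups did not overlap (log2 fold change -0.42, 95% confidence interval -0.75 to -0.10, adjusted p = 0.110). LDHB, the subunit that favors pyruvate formation, had 82.4, 86.7 and 114 FPKM and 102 and 142 FPKM, with overlap. LDHA made up 47.6% to 56.0% of the lactate dehydrogenase sum in HCC827/GR cells and 60.4% and 47.3% in HCC827 cells, with overlap. SLC16A3, the lactate exporter MCT4, had 3.53, 4.45 and 4.0 FPKM against 5.58 and 5.99 FPKM without overlap (log2 fold change -0.45, standard error 0.12, adjusted p = 0.0827). SLC16A1, the more abundant transporter MCT1, had 14.3 to 16.5 FPKM against 17.7 and 17.2 FPKM (log2 fold change -0.18, adjusted p = 0.321).

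Some of these genes have near-identical copies. In GENCODE, 14 of the 30 members have pseudogenes named after them, among them GAPDH with 62, PGAM1 with 13 and LDHA with 6. Only 30 of the GAPDH copies have an entry, and these summed to between 4.97 and 6.38 FPKM in each library. For LDHA, 3 copies have an entry, and these summed to between 3.24 and 4.59 FPKM. PGK1 has 1 by this name, whose entry stayed at or below 0.0689 FPKM in every library, and PFKM and OGDHL have none. How the authors' estimation divided reads among such copies was not measured.

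**Figure D4:**
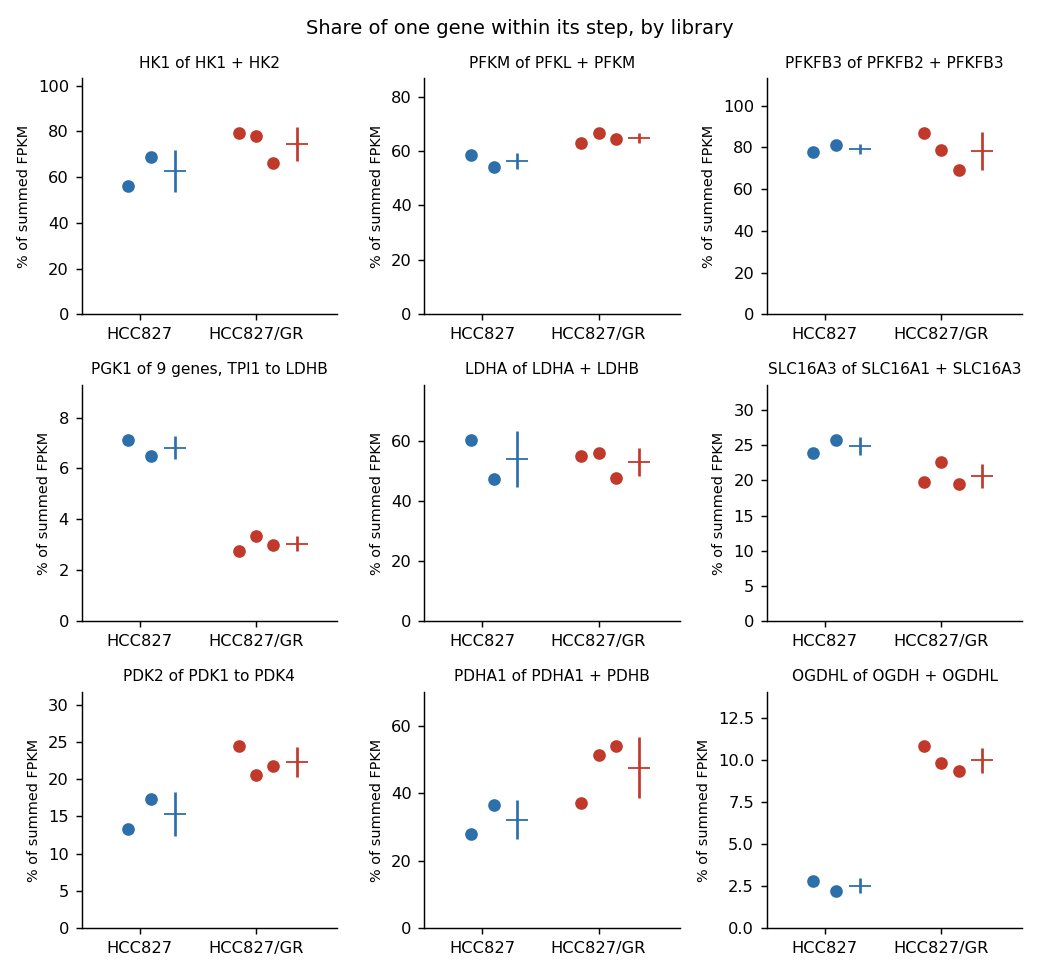
Share of 1 gene in the summed FPKM of the genes named above its panel, in percent with axes from 0. Each HCC827 (blue) and HCC827/GR (red) library is shown, with the mean and SD of each line beside the points. The phosphofructokinase sum leaves out PFKP. The lines do not overlap for PGK1, PFKM, SLC16A3, PDK2, PDHA1 and OGDHL and overlap for HK1, PFKFB3 and LDHA. For PDHA1 they nearly touch, at 37.2% in HCC827/GR replicate 1 and 36.4% in HCC827 replicate 3.

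The pyruvate dehydrogenase kinases, which switch off pyruvate dehydrogenase by phosphorylation, all had low levels, between 1.75 and 5.59 FPKM in every library, and none of the 4 passed the test. PDK1 had 1.75, 2.02 and 1.88 FPKM in HCC827/GR replicates 1 to 3 and 2.50 and 2.35 FPKM in HCC827 replicates 2 and 3 (log2 fold change -0.25, adjusted p = 0.188). PDK4 had 3.68, 3.21 and 3.26 FPKM against 4.17 and 4.10 FPKM (log2 fold change -0.23, adjusted p = 0.208). PDK2 was the exception in sign, with 2.84, 2.39 and 2.35 FPKM against 1.88 and 2.12 FPKM (log2 fold change 0.23, adjusted p = 0.267). None of these 3 overlapped between the lines, whereas PDK3 did. PDK2 made up 20.5% to 24.4% of the summed PDK level in HCC827/GR cells and 13.3% and 17.4% in HCC827 cells. The PDK2 entry also holds transcripts of the long non-coding AC002401.4.

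Of the subunits of the pyruvate dehydrogenase E1 component, PDHA1 had 7.42, 7.88 and 8.25 FPKM in HCC827/GR replicates 1 to 3 and 5.06 and 6.35 FPKM in HCC827 replicates 2 and 3. The groups did not overlap (log2 fold change 0.41, 95% confidence interval 0.09 to 0.72, adjusted p = 0.114). PDHB had 12.5 FPKM in HCC827/GR replicate 1 but 7.41 and 7.05 FPKM in replicates 2 and 3, and 13.0 and 11.1 FPKM in HCC827 cells (adjusted p = 0.377). PDHB in HCC827/GR replicate 1 thus sat with the HCC827 libraries.

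OGDHL rose most among the members. OGDH encodes the E1 subunit of the 2-oxoglutarate dehydrogenase complex of the citric acid cycle, and OGDHL is its less widely expressed paralog. OGDHL (chr10:49734643-49762379 on GRCh38, minus strand) had 4.31, 4.17 and 3.55 FPKM in HCC827/GR replicates 1 to 3 and 0.744 and 0.684 FPKM in HCC827 replicates 2 and 3. The lowest HCC827/GR value was several times the highest HCC827 value. The log2 fold change was 1.54 (standard error 0.11, 95% confidence interval 1.25 to 1.84, adjusted p = 0.00521 from limma), it stayed between 1.5 and 1.61 with each library left out in turn, and as a ratio of the mean FPKM, which the added 1 does not shrink, it was 2.49. The study lists OGDHL among its leading genes from these same libraries, so the value is no independent evidence of its direction. OGDH had 35.6, 38.3 and 34.4 FPKM against 25.7 and 30.4 FPKM, without overlap (log2 fold change 0.36, 95% confidence interval 0.06 to 0.65, adjusted p = 0.132). OGDHL made up 10.8%, 9.83% and 9.34% of the OGDH and OGDHL sum in HCC827/GR cells and 2.81% and 2.20% in HCC827 cells, so OGDH remained the main form in both lines.

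In the pentose phosphate pathway none of the 3 members passed the test. PGD, the second NADPH-yielding enzyme of the oxidative branch, had 29.7, 29.5 and 26.0 FPKM in HCC827/GR replicates 1 to 3 and 22.2 and 24.2 FPKM in HCC827 replicates 2 and 3 (log2 fold change 0.28, adjusted p = 0.182). TALDO1, the transaldolase of the non-oxidative branch, had 30.1, 29.7 and 30.7 FPKM against 25.6 and 24.3 FPKM (log2 fold change 0.26, adjusted p = 0.130). Both genes had higher values in every HCC827/GR library. The transketolase TKT had 33.4 to 38.4 FPKM against 38.0 and 38.2 FPKM, and the 95% confidence interval of its log2 fold change ran from -0.33 to 0.19.

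The 5 genes without an entry of their own could be followed only through joined entries. The entry that holds PFKFB4 together with COL7A1, UCN2 and MIR711 had 7.23, 6.04 and 6.08 FPKM in HCC827/GR replicates 1 to 3 and 1.42 and 0.990 FPKM in HCC827 replicates 2 and 3 (log2 fold change 1.76, standard error 0.14, adjusted p = 0.00617). Which of its genes moved cannot be told apart. The entry with SLC2A1, the glucose transporter GLUT1, and AC099795.1 had 64.2, 56.4 and 43.5 FPKM against 65.8 and 61.3 FPKM, with overlap (log2 fold change -0.23, 95% confidence interval -0.72 to 0.26). The entry with PFKP, the platelet-type phosphofructokinase, AL451164.3 and PITRM1-AS1 had 16.1, 18.2 and 16.8 FPKM against 11.5 and 13.5 FPKM (log2 fold change 0.42, adjusted p = 0.0873). The entries that hold GPI (with PDCD2L and AC092073.1) and ALDOC (with KIAA0100 and 3 more genes) had log2 fold changes of 0.25 and 0.18 with adjusted p of 0.182 and 0.267.

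Lists of further genes of these pathways were read in the same fit, without a test of the lists themselves. Among genes for the pyruvate dehydrogenase complex, its phosphatases and pyruvate import and use, all 12 were tested, 2 were higher and none lower, and the median log2 fold change was 0.34. The share called was 16.7%, against 11.0% of all entries. In 11 of the 12 the groups did not overlap, 9 of them with HCC827/GR higher, against 46.3% of all entries in either direction. MPC2, a subunit of the mitochondrial pyruvate carrier, had 26.2, 22.4 and 23.0 FPKM in HCC827/GR replicates 1 to 3 and 9.79 and 5.64 FPKM in HCC827 replicates 2 and 3. Every HCC827/GR value of MPC2 was above both HCC827 values (log2 fold change 1.55, standard error 0.23, adjusted p = 0.0236). The MPC2 call was lost, with an adjusted p of 0.0818, 0.0729, 0.0701 and 0.0505, when HCC827/GR replicate 1, 2 or 3 or HCC827 replicate 3 was left out. Its partner MPC1 had 6.37, 5.06 and 4.63 FPKM against 3.55 and 2.42 FPKM (log2 fold change 0.68, adjusted p = 0.0963). The other called gene was DLD, the E3 subunit shared by the pyruvate and 2-oxoglutarate dehydrogenase complexes, with a log2 fold change of 0.51 (adjusted p = 0.0336). MPC1 and DLD are named after their values were seen.

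Among genes of the citric acid cycle and relatives of them, 18 of 20 were tested, 1 was higher and none lower, with a median of 0.25. The list also holds the cytosolic ACO1, IDH1 and MDH1 and the OGDH relative DHTKD1, so its counts are not of the cycle alone. The share called was 5.56%, against 11.0% of all entries, and 14 of the 18 log2 fold changes were above 0, against 8125 of 16189. IDH2, the mitochondrial NADP-dependent isocitrate dehydrogenase, had 12.5, 13.3 and 11.3 FPKM in HCC827/GR cells and 4.28 and 5.54 FPKM in HCC827 cells (log2 fold change 1.18, standard error 0.14, adjusted p = 0.0134). Its adjusted p was 0.0653 without HCC827 replicate 2 and 0.0597 and 0.0525 without HCC827/GR replicate 1 or 2. Among 15 tested genes of 29 for further glucose transporters and glycolytic isoforms, 3 were higher and none lower, or 20% against the 11.0% of all entries. SLC2A6, the transporter GLUT6, had 8.43, 5.14 and 6.44 FPKM against 2.59 and 2.22 FPKM (log2 fold change 1.15, standard error 0.21, adjusted p = 0.0353). Its adjusted p was above 0.05 when any library other than HCC827/GR replicate 2 was left out, between 0.0648 and 0.153. SLC2A10 rose by 0.85 on the log2 scale (adjusted p = 0.0149) and the hexokinase-like HKDC1 by 0.82 (adjusted p = 0.0157), both named after their values were seen. HKDC1 had 14.3, 15.7 and 16.5 FPKM in HCC827/GR cells and 7.99 and 8.65 FPKM in HCC827 cells. Of 8 tested pentose phosphate genes of 10, RBKS alone was called (12.5%, against 11.0%), with a log2 fold change of 0.75 (adjusted p = 0.0193). RBKS, a ribokinase, was likewise named after its values were seen.

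**Figure D5:**
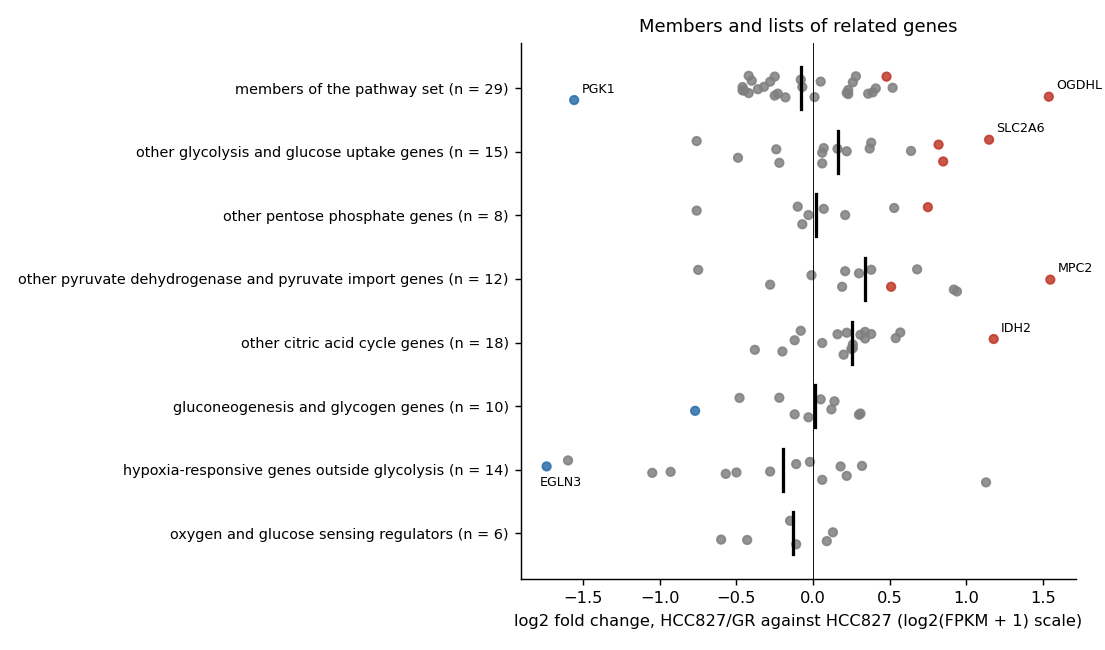
Log2 fold change of HCC827/GR against HCC827 for the tested members and for the tested genes of each list, with list medians as black bars and genes at an adjusted p under 0.05 in red (higher) or blue (lower). PGK1, OGDHL, SLC2A6, MPC2, IDH2 and EGLN3 are the called genes with an absolute value of at least 1.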

How the data were processed

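RNA sequencing of HCC827/GR (replicates 1, 2 and 3) and HCC827 (replicates 2 and 3) was analyzed from the FPKM values that the authors deposited. Following the paper's methods, the authors trimmed reads with Cutadapt, mapped them with Bowtie2 and TopHat2, assembled transcripts with StringTie and estimated FPKM with StringTie and Ballgown. The versions are not given in the sources used here. The submitters' processing notes list hg18, but the table has no coordinates. The labels describe a small RNA kit and the paper an rRNA-depleted mRNA library. The table holds 1 further FPKM column that matched no sample and was not used.

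Positions came from GENCODE release 29 (GRCh38) through the Ensembl transcript IDs, 135164 of 135299 of which matched. The lines were compared with limma 3.58.1 (two-sided, lmFit followed by trended eBayes) in R 4.3.3 on log2(FPKM + 1), for entries whose mean over the 5 libraries reached 0.5 FPKM, and p-values were adjusted by Benjamini-Hochberg. The pseudocount of 1 understates the change of low genes. No read counts were at hand, so no count model was used. The other steps ran in Python 3.11.15 (pandas 2.3.3, matplotlib 3.10.9). The code of the fit was checked on simulated data with independent noise between libraries, which does not show how stable the calls are. Members with an adjusted p under 0.05 were given by library, and list genes were named by rule where the absolute log2 fold change was also at least 1. The members and lists were chosen with earlier results of these data known. Alternatives covered quantile normalization, median-ratio scaling, a pseudocount of 0.1, a filter at 1 FPKM and none, no trend, Ballgown's library-size covariate, a replicate block, entries of a symbol summed, the ratio of the mean FPKM, and each library left out. Chosen after seeing the data were the neighbors and their alternatives, the promoters, and the alternatives for the shares and for the genes of the lists.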

Additional observations from a re-analysis of the deposited data

How the results depend on the processing

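In all, 15 alternatives were run for the members.
Of 435 member values under them, 414 kept their direction and side of the threshold. Another 13 were no longer past an adjusted p of 0.05, all of them for PFKM, PGK1 and OGDHL. The 26 members not called in the main fit had no call to lose. The ratio of the mean FPKM kept the p of the main fit, so its side of the threshold was fixed. The remaining 8 values changed sign. With the library-size covariate the log2 fold change was -0.01 for PFKL, -0.20 for PFKFB2, -0.04 for PGAM1 and 0.02 for TKT, with quantile normalization -0.02 for PFKL and -0.00 for PGAM1, and with a library left out PFKL ran from -0.08 (without HCC827 replicate 2) to 0.10. The cause was not tested. The count of members higher was 1 with the covariate and without the trend, and 1 whichever library was left out. The count lower was 0 with the covariate and ran from 0 to 1 with a library left out. With the covariate 5 members had an unadjusted p under 0.05 in limma. The members' median was -0.12 with the covariate, -0.13 without the filter, -0.16 with quantile normalization and -0.05 to -0.12 with a library left out. The genes called in the other lists numbered 0 with the covariate and 1 to 5 with a library left out, against 9. The LDHA share differed between the lines by 5.53 percentage points without HCC827 replicate 2 and by -7.54 without HCC827 replicate 3. Of all entries, 1775 were called, against 145 with the covariate and 432 to 884 with a library left out. Where an HCC827 library was left out, the lone library was assumed to vary like the others. A replicate block on the shared numbers 2 and 3 gave limma counts of 0 members higher, 0 lower and 0 list genes, with PGK1 at -1.47 (adjusted p = 0.124) and OGDHL at 1.5 (adjusted p = 0.127), and called 0 of all 16189 entries, of which 3545 had an unadjusted p under 0.05. That fit leaves a single residual degree of freedom. The deviations of same-numbered libraries correlated at 0.0328 and 0.0147. With 2 HCC827 libraries, the pairs of unlike number mirror these values with the sign reversed, so they cannot decide the question. Whether the numbers pair the libraries is not known.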

Other observations

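Genes outside glycolysis that respond to low oxygen were also read, since many glycolytic genes share their regulators. Of 18 such genes, 14 were tested, none was higher and 1 was lower at an adjusted p under 0.05 in limma, with 4 at an unadjusted p under 0.05 and a median log2 fold change of -0.19. The share called was 7.14%, against 11.0% of all entries, and 27.2% of all entries had an unadjusted p under 0.05, so both counts were near those of the whole table. EGLN3, a prolyl hydroxylase that marks HIF for degradation and is itself induced by HIF, had 0.125, 0.266 and 0.0916 FPKM in HCC827/GR replicates 1 to 3 and 3.0 and 2.75 FPKM in HCC827 replicates 2 and 3 (log2 fold change -1.74, standard error 0.13, adjusted p = 0.00552). ADM, which encodes adrenomedullin, pointed the other way with 6.33, 5.74 and 7.79 FPKM against 3.36 and 1.76 FPKM (log2 fold change 1.13, adjusted p = 0.0527). VEGFA had 1.7, 2.18 and 2.39 FPKM against 3.66 and 3.07 FPKM (log2 fold change -0.50, adjusted p = 0.102). DDIT4 had 58.3 FPKM in HCC827 replicate 2 and between 5.57 and 17.5 FPKM in the other 4 libraries. Among 6 tested regulators of oxygen and glucose sensing none was called, with 1 at an unadjusted p under 0.05. ADM, VEGFA and DDIT4 were named after their values were seen.

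Of 10 tested genes of gluconeogenesis and glycogen metabolism, PYGB, the brain-type glycogen phosphorylase, alone was called (10%, against 11.0% of all entries). It had 65.7, 70.0 and 63.5 FPKM in HCC827/GR cells and 116 and 112 FPKM in HCC827 cells (log2 fold change -0.77, adjusted p = 0.0143). PYGL, the liver-type enzyme, had 41.9 to 45.1 FPKM against 43.1 and 36.4 FPKM (adjusted p = 0.489). Both were named after their values were seen.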
